A study of Saccharomyces cerevisiae with 3 samples.

Results

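Genes of nitrogen uptake, nitrogen breakdown and ammonium assimilation were examined in Saccharomyces cerevisiae S288C, the standard laboratory yeast strain, after exposure to fluazinam. The members were a list of 35 genes named by symbol and pathway, drawn up with earlier results of these data known, so their counts and medians are descriptions and not independent evidence of a direction. They were taken further where at least 2 arrays held a value. Of the 35 genes, 32 had a probe named for them by the platform annotation, and 22 of these had at least 2 values, out of 4979 genes and unnamed probes that met the same rule. DAL81, URE2 and DUR1,2 were not analysed here.

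Each of the 3 two-colour arrays set cDNA of treated cells, labelled with Cy5, against cDNA of untreated cells, labelled with Cy3. Treated cultures of 100 ml in exponential growth received 1.5 uM fluazinam for 2 h, and untreated cultures were grown on for 2 h without it. Both groups were S288C in YPD, a rich medium of peptone, yeast extract and glucose, at 25 C with shaking. The series describes the arrays as independent biological samples, but whether every untreated RNA came from its own culture was not stated, so p-values measure the spread between these arrays. With the same dye on treated cDNA every time, a dye effect of a gene cannot be told apart from the treatment. Values are read as log2 of treated over untreated. Neither the log base nor the direction was stated, and the direction is likely from the channel order only: if it ran the other way, every sign below would turn. RNA came from whole cultures, so fewer cells that express a gene and less of its RNA per cell cannot be told apart, and each value is relative to the other transcripts on its array.

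Yeast cells given a good nitrogen source, such as glutamine or ammonium, keep the genes for poorer sources switched off, a control known as nitrogen catabolite repression. When good nitrogen runs short or TORC1 signalling falls, the GATA activators Gln3 and Gat1, held back in the cytoplasm with the help of Ure2, enter the nucleus and switch on permeases and breakdown enzymes, while the GATA repressors Dal80 and Gzf3 compete for the same promoter sites. The list mixes such repressed genes with their regulators and with the enzymes that build ammonium into glutamate and glutamine.

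GAP1, the general amino acid permease, and UGA2, an enzyme of GABA breakdown, rose in treated cells, and GDH1, the main NADP-dependent glutamate dehydrogenase, fell. These 3 were the only members past an adjusted p of 0.05 (limma, Benjamini-Hochberg over all features), with 19 of the 22 tested not passing. The 2 rises make 9.09% of the members tested, against 2.29% of all features called higher, and the 1 fall makes 4.55%, against 2.51% of all features called lower. The members' median log2 ratio was 0.49, against 0.03 over all features tested, and 17 of the 22 had a mean above 0 where 52.1% of all features did. An unadjusted p under 0.05 was reached upward by 9 members, or 40.9%, against 11.9% of all features, and downward by 2, or 9.09%, against 14.6%.

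All these calls depended on which arrays were used. Leaving out replicate 1 or replicate 3 removed every call of this test, 0 of 4522 features without replicate 1 and 0 of 4124 without replicate 3, although 823 and 948 features then had an unadjusted p under 0.05. Among the members, 6 upward and 1 downward of 20 had such an unadjusted p without replicate 1. There were 7 upward and 2 downward of 18 without replicate 3, while the feature counts pool both directions. The omission of replicate 2 left 3 upward and 3 downward of 18 members, with 1096 of 3937 features in either direction. Without replicate 2 the test called 623 features, among them UGA1, UGA2, GDH1, GLN1 and GLT1 but not GAP1. The members' median was 0.27 without replicate 1, 0.53 without replicate 2 and 0.71 without replicate 3.

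**Figure D1:**
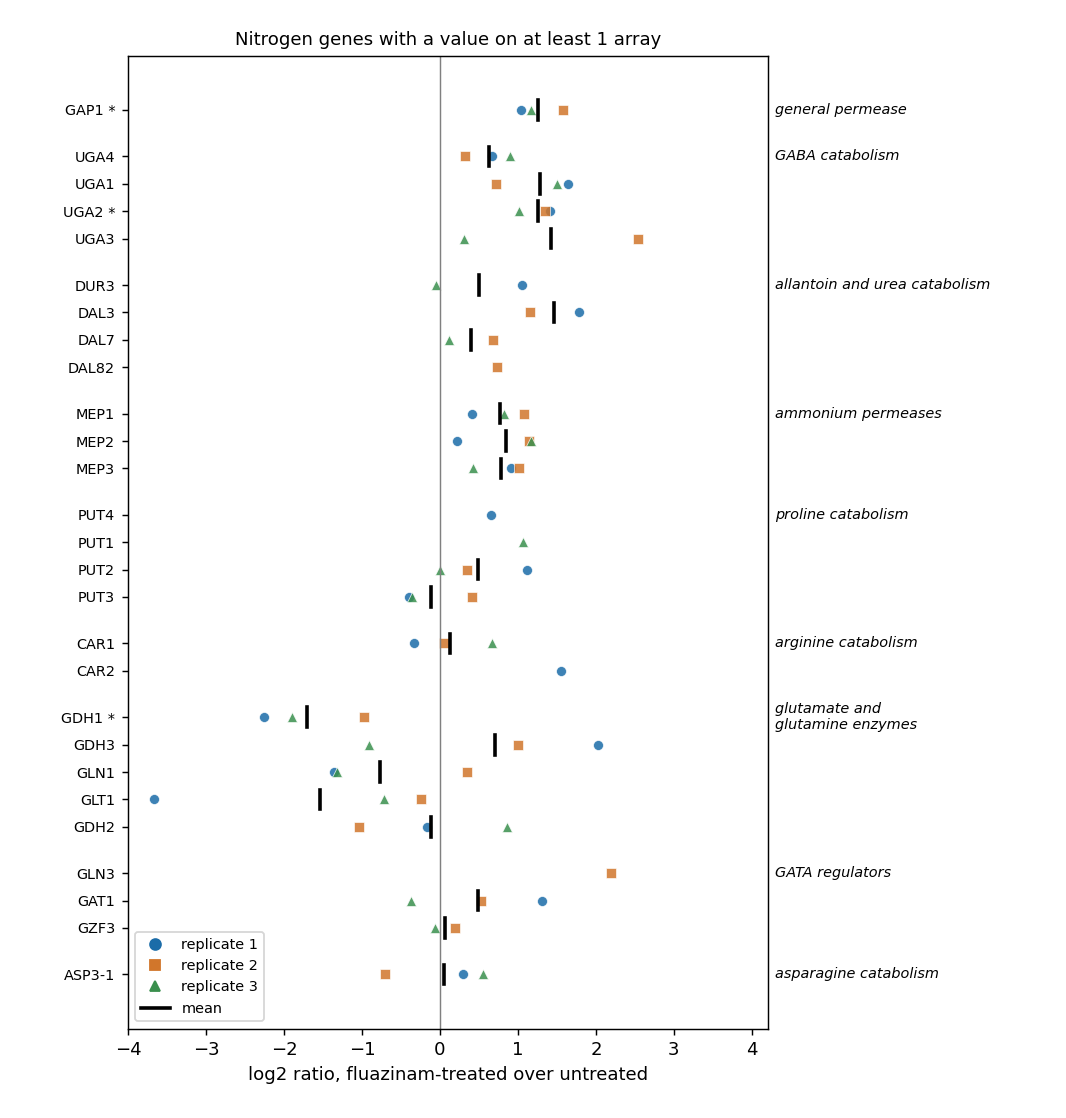
Log2 ratios (horizontal axis, treated over untreated) of the 27 members with a value on at least 1 array, by role; symbols are the 3 arrays, black bars the mean of members with at least 2 values, and an asterisk marks an adjusted p under 0.05. The GAP1, UGA and MEP values all lie right of 0, while GDH1 and GLT1 lie left of it on every array.

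GAP1 (YKR039W), which takes up nearly every amino acid when good nitrogen is scarce, had log2 ratios of 1.04, 1.58 and 1.16 on replicates 1 to 3. All 3 arrays thus put it higher in treated cells, by a mean of 1.26 ± 0.28 (SD, n = 3; adjusted p = 0.0472), which is 2.40-fold on the log2 reading. The adjusted p missed the threshold when any 1 array was left out, at 0.118 without replicate 1, 0.0581 without replicate 2 and 0.0997 without replicate 3, while the mean stayed between 1.10 and 1.37.

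Of the 4 GABA genes, UGA2 rose and the other 3 did not pass over all features, although all 4 had an unadjusted p under 0.05. UGA2 (YBR006W), the succinate semialdehyde dehydrogenase that completes GABA breakdown, had 1.41, 1.34 and 1.02 on the 3 arrays. Its values were close together, with a mean of 1.26 ± 0.21 (SD, n = 3; adjusted p = 0.0463), and the call was lost without replicate 1 (0.158) and without replicate 3 (0.0850). UGA1 (YGR019W), the GABA transaminase one step before, had 1.65, 0.72 and 1.50, with replicate 2 the lowest, and a mean of 1.29 ± 0.50 that narrowly missed the threshold (adjusted p = 0.0546). It passed at 0.0437 when only features with values on all 3 arrays were tested, and at 0.00875 without replicate 2. The GABA permease gene UGA4 (YDL210W) had 0.66, 0.32 and 0.90 (mean 0.63 ± 0.29, adjusted p = 0.174). UGA3 (YDL170W), the zinc cluster activator of these genes, had no value on replicate 1 and 2.54 and 0.31 on replicates 2 and 3, so its mean of 1.42 ± 1.57 (SD, n = 2; adjusted p = 0.185) rests on 2 arrays that lie far apart.

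The 3 ammonium permease genes were above 0 on every array, but none passed. Mep1, Mep2 and Mep3 are related membrane proteins that import ammonium, and Mep2 also acts as an ammonium sensor in filamentous growth. Whether the probes of these related genes share signal was not tested, since probe sequences were not used here. MEP1 (YGR121C) had 0.41, 1.08 and 0.83, with a mean of 0.77 ± 0.34 (adjusted p = 0.122). MEP2 (YNL142W) was lowest on replicate 1, with 0.22, 1.15 and 1.17 and a mean of 0.85 ± 0.54 (adjusted p = 0.129). MEP3 (YPR138C) had 0.91, 1.02 and 0.43, with a mean of 0.79 ± 0.32 (adjusted p = 0.117). Their means thus lay within 0.77 to 0.85, closer to each other than the spread of any of them over arrays. All 3 had an unadjusted p under 0.05. The closeness depended on the setting. With the median of each inferred sub-grid subtracted, the means of MEP1, MEP2 and MEP3 were 0.47, 0.96 and 0.61. Without replicate 1 they were 0.95, 1.16 and 0.72.

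Of the 17 members with 3 values, 7 were above 0 on all 3 arrays, or 41.2%, against 25.2% of all such features. They were GAP1, UGA4, UGA1, UGA2, MEP1, MEP2 and MEP3. Below 0 on all 3 arrays were 2, GDH1 and GLT1, or 11.8%, against 27.1% of such features. Of those 7 genes, 5 encode permeases for nitrogen compounds. Of the 9 permease genes in the list, 6 were tested; their median was 0.78, against 0.03 over all features, and GAP1 alone rose, where 2.29% of all features were called higher.

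Genes of allantoin and urea breakdown, which let this yeast use allantoin, a product of purine breakdown, as a nitrogen source, could be described only in part. Of 10 listed, 8 had a named probe and 3 were tested, each on 2 arrays, and none passed. DAL3 (YIR032C), the ureidoglycolate lyase, had 1.78 on replicate 1 and 1.15 on replicate 2, the highest mean of all members tested at 1.47 ± 0.45 (SD, n = 2; adjusted p = 0.0754). DAL7 (YIR031C), a malate synthase that uses the glyoxylate released by the pathway, had 0.67 on replicate 2 and 0.12 on replicate 3 (mean 0.40 ± 0.39, adjusted p = 0.487). The urea permease gene DUR3 (YHL016C) had 1.05 on replicate 1 and -0.05 on replicate 3 (mean 0.50 ± 0.77, adjusted p = 0.452). A single value, 0.74 on replicate 2, was present for DAL82 (YNL314W), an activator of the pathway.

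DAL1 (allantoinase), DAL2 (allantoicase), DAL4 (allantoin permease), DAL5 (allantoate permease) and the GATA repressor gene DAL80 had no value on any array. With these, 5 of the 32 members on the array lacked any value, or 15.6%, against 3.3% of the 5203 named genes, and 53.1% of the members had all 3 values, against 68.7% of the named genes. DAL1, DAL4, DAL2, DCG1, DAL7 and DAL3 are 6 consecutive genes of the reference gene table, and the 3 without a value are the first 3 of them. The labels restrict the normalization to data flagged 0, and what led to another flag was not given; whether signal strength played a part was not tested, since no intensities were used here. The genes described here are therefore those of the list that could be measured, and their counts do not stand for the whole list.

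**Figure D2:**
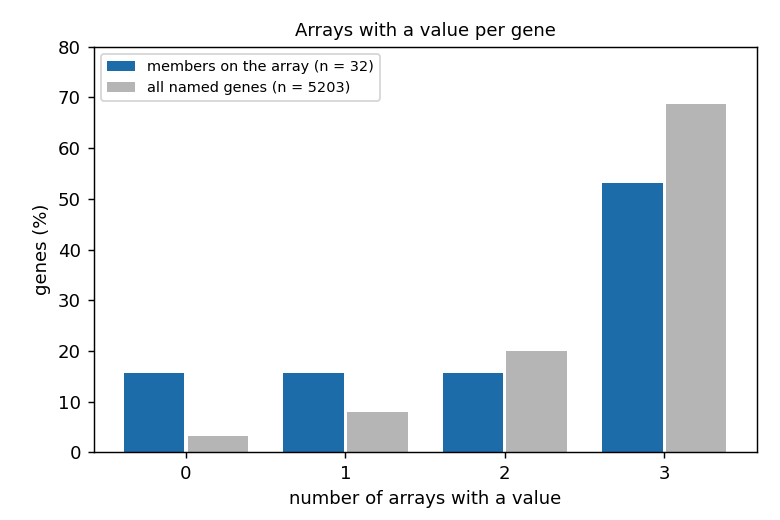
Share of genes (vertical axis, percent) by the number of arrays with a value (horizontal axis), for the 32 members on the array and for all 5203 named genes. Members with no value made 15.6%, against 3.3% of named genes.

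Proline and arginine breakdown showed no call. PUT2 (YHR037W), the pyrroline carboxylate dehydrogenase that completes proline breakdown, had 1.11, 0.35 and -0.00076 (mean 0.49 ± 0.57, adjusted p = 0.331), so the arrays did not share a clear direction. PUT3 (YKL015W), the activator of the proline genes, lay around 0 with -0.39, 0.41 and -0.36 (mean -0.12 ± 0.45, adjusted p = 0.817). The proline oxidase gene PUT1 had 1 value, 1.06 on replicate 3, and the proline permease gene PUT4 had 1 value, 0.66 on replicate 1. CAR1 (YPL111W), the arginase, had -0.33, 0.05 and 0.66 (mean 0.13 ± 0.50, adjusted p = 0.799), while CAR2, the ornithine aminotransferase, had 1 value of 1.55 on replicate 1. These single values have no replicate and were not tested.

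ASP3-1 (YLR155C) is 1 of 4 nearly identical asparaginase genes for a cell wall enzyme made under nitrogen starvation. Its values of 0.29, -0.70 and 0.55 gave a mean of 0.05 ± 0.66 (adjusted p = 0.939). The probes named for the other copies had means of 0.58 ± 0.49 (ASP3-2), -0.14 ± 0.56 (ASP3-3) and 0.63 ± 0.52 (ASP3-4; SD, n = 3 each), and all 4 were lowest on replicate 2. Transcripts of the copies can share signal on these probes, so the 4 are not separate measurements of separate genes.

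Among the 5 glutamate and glutamine enzymes of the list, GDH1, GDH2, GLN1 and GLT1 had a mean below 0 and GDH3 had a mean above 0. GDH2 is known for releasing ammonium, and the others for assimilating it. Their median log2 ratio was -0.77, against 0.63 over the 17 tested members of the other roles, a division made after the values had been seen. Of the 5, GDH1 fell, where 2.51% of all features were called lower, and 4 did not pass. GDH1 (YOR375C), which joins ammonium to 2-oxoglutarate to make glutamate, had -2.25, -0.98 and -1.90 on replicates 1 to 3. The smallest shift was on replicate 2, the mean was -1.71 ± 0.66 (SD, n = 3; adjusted p = 0.0437), or 3.27-fold lower, and the call was lost without replicate 1 (0.126) and without replicate 3 (0.0955).

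GLT1 (YDL171C), the glutamate synthase that makes glutamate from glutamine, had -3.66, -0.24 and -0.72. Replicate 1 stood far below the other arrays, and the mean of -1.54 ± 1.85 did not pass (adjusted p = 0.184). Without replicate 1 the mean was -0.48, and without replicate 2 the gene passed downward at -2.19 (adjusted p = 0.00721). That pass rests on 2 values that lie far apart, -3.66 and -0.72. GLN1 (YPR035W), the glutamine synthetase, had -1.35, 0.35 and -1.32, so replicate 2 had the opposite sign. Its mean was -0.77 ± 0.98 (adjusted p = 0.252), and without replicate 2 it passed at -1.34 (adjusted p = 0.0224). GDH2 (YDL215C), the NAD-dependent dehydrogenase, had -0.17, -1.04 and 0.86 (mean -0.11 ± 0.95, adjusted p = 0.871), with no shared direction.

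GDH3 (YAL062W), the paralogue of GDH1 known from growth on non-fermentable carbon and from stationary phase, had 2.03, 1.00 and -0.92, high on replicates 1 and 2 and low on replicate 3 (mean 0.71 ± 1.49, adjusted p = 0.430). On each array it was nonetheless above GDH1, by 4.28, 1.98 and 0.99 log2 units (GDH3 minus GDH1; mean 2.41 ± 1.69, n = 3). The exact two-sided sign-flip permutation test of that difference gave p = 0.25, the smallest that 3 arrays allow. Since the paralogues are alike in sequence and probe sequences were not used here, each probe may carry part of the other's signal.

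Little could be measured of the GATA regulators. GAT1 (YFL021W), whose own gene is under the same repression, had 1.31, 0.52 and -0.38 (mean 0.48 ± 0.84, adjusted p = 0.418) and so no shared direction. GZF3 (YJL110C), a GATA repressor, had 0.20 and -0.06 on replicates 2 and 3 and none on replicate 1 (mean 0.07 ± 0.18, adjusted p = 0.911). GLN3 (YER040W), the other activator, had 1 value, 2.20 on replicate 2. Gln3 and Gat1 are known to be controlled by where the proteins lie in the cell, which arrays do not measure.

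**Figure D3:**
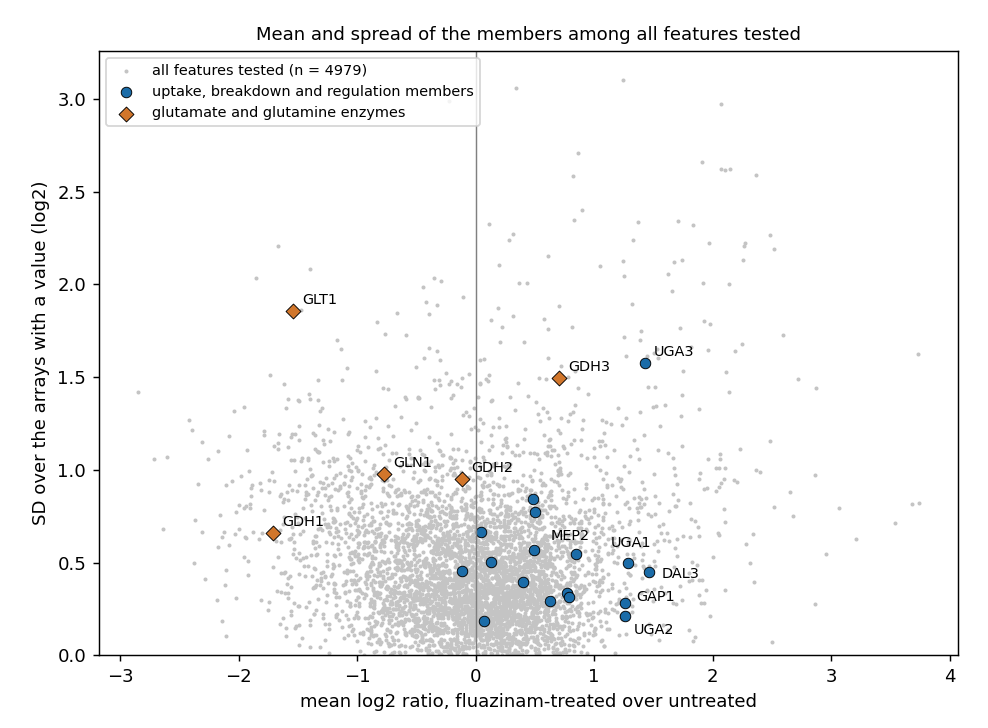
Mean log2 ratio (horizontal axis) and its SD over the arrays with a value (vertical axis) for the 22 members tested, over all 4979 features in grey. GAP1 and UGA2 combine a mean near 1.26 with an SD under 0.3, while GLT1, UGA3 and GDH3 have SDs of 1.49 to 1.85.

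The size of the shifts in these genes differed between the arrays. Over the members tested, array medians were 0.66, 0.52 and 0.31 on replicates 1 to 3, against 0.08, -0.03 and 0.00 over all features. Members above 0 were 13 of 19, 17 of 21 and 12 of 21 with a value. Over all features these counts were 2274 of 4259, 2346 of 4844 and 2331 of 4657. The 5 glutamate and glutamine enzymes had array medians of -1.35, -0.24 and -0.92, with replicate 2 nearest to 0, and the ammonium permeases had 0.41, 1.08 and 0.83, with replicate 2 the highest. The members' median SD was 0.52, against 0.43 over all features.

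Other genes reported to be under nitrogen catabolite repression were listed by name, also with earlier results of these data known, so their counts are no independent evidence of a direction. Of 17 listed, 15 were tested: 3 rose, against 2.29% of all features called higher, 0 fell and 12 did not pass. An unadjusted p under 0.05 was reached upward by 9, or 60%, against 11.9% of all features. Downward it was reached by 0, against 14.6%. The median log2 ratio was 0.93, against 0.03 over all features. Of the 14 with 3 values, 10 were above 0 on every array, or 71.4%, against 25.2% of all such features. RTS3, a putative component of protein phosphatase 2A, had 1.99, 2.54 and 1.48 (mean 2.00 ± 0.53, adjusted p = 0.0364). APE1, a vacuolar aminopeptidase also known as LAP4, had 2.51, 1.23 and 1.91 (mean 1.88 ± 0.64, adjusted p = 0.0383). DIP5, the permease for glutamate and aspartate, had 2.67, 1.16 and 1.29 (mean 1.71 ± 0.84, adjusted p = 0.04999, just under the threshold). With the first listed probe of each gene it missed the threshold (adjusted p = 0.0504), although its own mean was the same, 1.71. None of the 3 passed without replicate 1 or without replicate 3.

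Of 10 tested glutamate and aspartate enzymes beside the pathway, 1 rose, 1 fell and 8 did not pass, where 2.29% of all features were called higher and 2.51% lower. GAD1, the glutamate decarboxylase that forms the GABA which UGA1 and UGA2 degrade, rose, with 1.55, 1.26 and 2.30 (mean 1.70 ± 0.54, adjusted p = 0.0393). ASP1, the cytosolic asparaginase, fell, with -2.34, -1.21 and -2.28 (mean -1.94 ± 0.63, adjusted p = 0.0372). Both calls were lost without replicate 1 and without replicate 3. ASP3-1 lay above ASP1 on each array, by 2.63, 0.51 and 2.83 log2 units (ASP3-1 minus ASP1, mean 1.99 ± 1.29, n = 3). The exact two-sided sign-flip permutation test gave p = 0.25, the smallest possible. With ASP3-1 at a mean of 0.05, this difference mostly restates the fall of ASP1 and is no separate result.

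**Figure D4:**
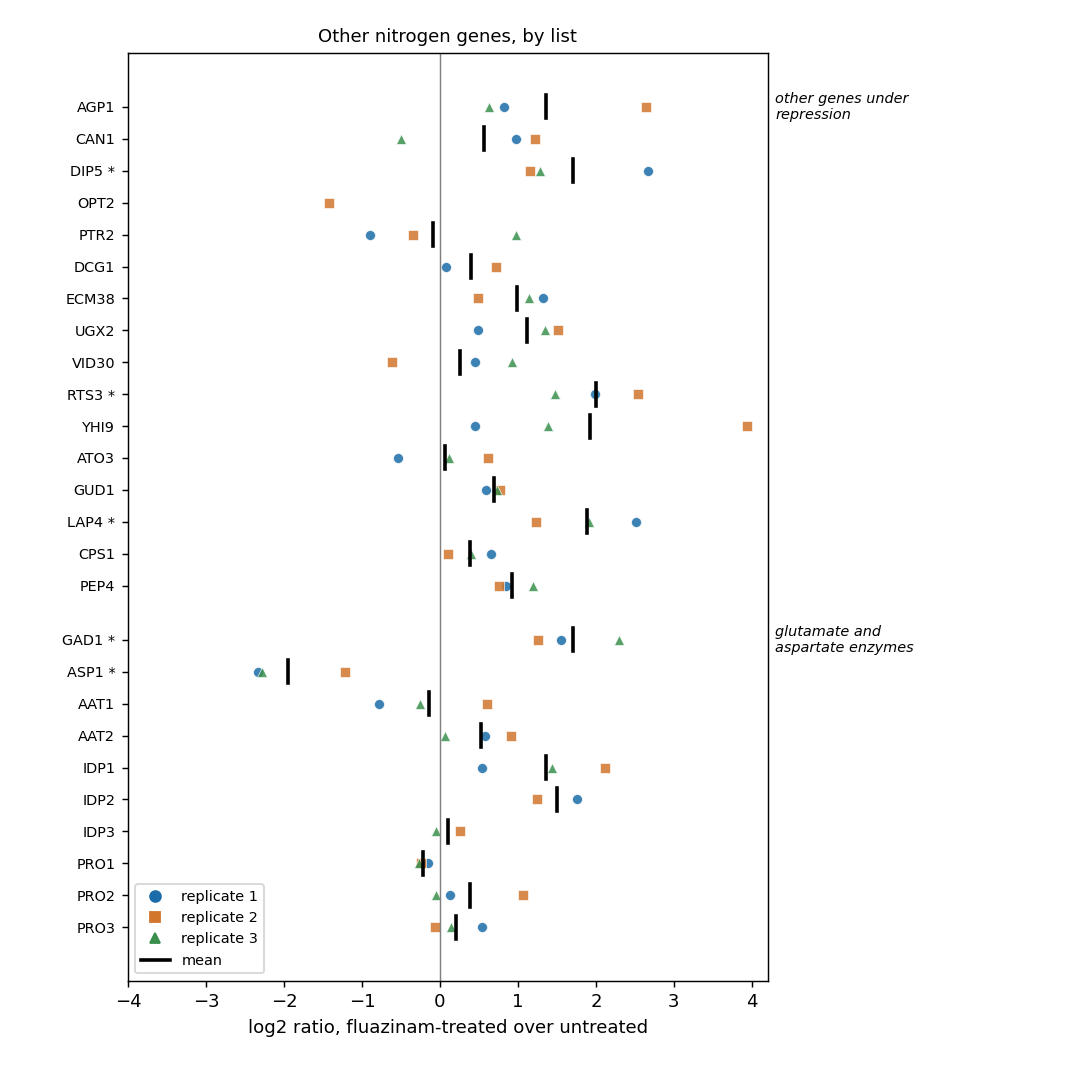
Log2 ratios (horizontal axis, treated over untreated) of other genes reported to be under nitrogen catabolite repression and of glutamate and aspartate enzymes; symbols are the 3 arrays, black bars the mean of genes with at least 2 values, and an asterisk marks an adjusted p under 0.05. APE1 is drawn under its older name LAP4. RTS3, LAP4 and GAD1 lie right of 1 on every array, and ASP1 lies left of -1.

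The upstream signalling genes showed no call. Of 16 tested genes of TORC1, its phosphatases and its nitrogen inputs, 0 passed, and 0 upward and 2 downward had an unadjusted p under 0.05, against 11.9% and 14.6% of all features. The downward share, 12.5%, was thus near that of all features. The largest mean in either direction was that of SCH9, a kinase that TORC1 activates, with -1.43, -1.22 and -0.30 (mean -0.98 ± 0.60, adjusted p = 0.107). The list's median was 0.27. A mean above 0 was found for 12 of the 16, beside 17 of the 22 members and 52.1% of all features. Of 5 tested regulators of arginine genes 0 passed, and 1 downward had an unadjusted p under 0.05; this was MCM1, a MADS box factor, at -0.71 ± 0.44 (adjusted p = 0.161). Of the 2 tested genes of the amino acid sensor at the cell surface 0 passed and 0 had an unadjusted p under 0.05; SSY1, the sensor itself, was at 0.49 ± 0.22 (adjusted p = 0.253).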

How the data were processed

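Expression was measured on 3 two-colour arrays of fluazinam-treated against untreated yeast. The authors deposited 1 table of log ratios, read here as log2, after LOWESS normalization of spots with a flag value of 0, per the labels. How the arrays were scanned and background-corrected, and which base and direction the ratios have, is not given in the sources used here. Values ran from -4.48 to 5.50. Probes on the arrays number 6272; 4463, 5245 and 4865 had a value on replicates 1 to 3. Intensities were not used here, so depth is unknown.

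Probes were named by the platform annotation: 5308 had 1 gene symbol, 0 had several and 964 none. Of the named probes 5304 matched the RefSeq gene table (assembly R64) by identifier. Of 88 genes with several probes, which were averaged, 65 had identical values on all of them; no member had several probes.

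The mean of features with at least 2 values was tested against 0 with lmFit and eBayes (limma 3.58.1, R 4.3.3; 4.58 prior degrees of freedom), across all 4979 features, with Benjamini-Hochberg adjustment. A missing array was dropped from a feature's fit. The method was tested on simulated data with independent noise and no shifts between arrays. The outcome is not given here, so it says nothing on the calls above. Every tested member is named; from the other lists, those past the threshold and the largest mean of each list. Members, lists and tests were chosen with earlier results of these data known. Alternatives were all 3 values, array centring, a common scale, leaving out each array, robust moderation, array weights, the first probe, sub-grid medians and a threshold of 0.1.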

Additional observations from a re-analysis of the deposited data

How the results depend on the processing

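Main counts were 2 members higher, 1 lower, 5 related genes and 239 features in all. Leaving out each array in turn gave 0 to 2 members higher, 0 to 3 lower, 0 to 6 related genes, 0 to 623 features and a members' median of 0.27 to 0.71, against 0.49. Members called higher were 4 with a common median absolute deviation (UGA1 and DAL3 added), where 352 of 4979 features passed in all. They were also 4 with the median of each inferred sub-grid subtracted (UGA1 and MEP2 added) and 4 at an adjusted p under 0.1 (UGA1 and DAL3 added). At that threshold 10 related genes and 642 features passed, and with sub-grid medians subtracted 372 features did. In that sub-grid setting 6 of 22 members had an unadjusted p under 0.05 upward, against 9 in the main setting. Features with such a p in either direction were 1447, against 1320. The members' median was then 0.51, against 0.49. UGA1 also passed with values on all 3 arrays, array centring, robust moderation or array weights. In these settings 299 of 3802, 322 of 4979, 329 of 4979 and 283 of 4979 features passed. GAP1, UGA2 and GDH1 passed in all alternatives that kept the 3 arrays. Members near 0 changed sign: PUT3 (-0.12) ran from -0.38 to 0.023, CAR1 (0.13) from -0.14 to 0.36, GDH2 (-0.11) from -0.60 to 0.35 and ASP3-1 (0.05) from -0.20 to 0.42 over the arrays left out; GDH2 was at 0.16 with sub-grid medians subtracted and ASP3-1 at -0.028 with a common deviation. The cause of these changes was not tested. Each array's ratio already pairs treated with untreated cDNA, and with 1 group no further replicate block could be fitted. The number of arrays and missing values limit precision.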
